A study of Homo sapiens with 7 samples.

Results

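The comparison described here sets Huh7 cells treated with IFN-α for 16 h against untreated Huh7 cells. Huh7 is a human hepatoma line with many features of hepatocytes. The pair was chosen by its labels: 1 array of cells given IFN-α at 10 IU/ml for 16 h, and 1 array of cells given no interferon and labelled 0 h. These are 2 of 7 arrays, and the other 5 were IFN-α at 6 h and, at both times, IFN-λ1 and IFN-λ4 (20 ng/ml each). All cells came from one line, grew in serum-containing medium and had been plated the night before treatment, and their amplified, Cy5-labelled RNA was hybridised to 1-colour arrays. Time in culture differed between the 16 h cells and the untreated cells, so the effect of IFN-α and that of the added hours cannot be told apart. Each condition was measured once. No difference below therefore has a replicate check, no p-value is given, and the number of arrays limits the precision.

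Values are normalised intensities, that is, probe brightness after quantile normalisation of the 7 arrays, and differences are log2 values of IFN-α 16 h minus untreated. The median probe read 633 units as deposited on the IFN-α 16 h array and 609 on the untreated array, within a range of 494 to 633 over the 7 arrays. A gene was represented by its brightest probe, and the 12835 of 18336 genes whose mean over the arrays exceeded 265 units, the 30th percentile, were compared. Lower values are called dim. Over all 24740 probes with 1 gene symbol, with no such filter, 5.74% were at least 2-fold higher and 3.29% lower. With 1 array per side, a gene was called when it differed by at least 2-fold. By that rule 738 genes (5.75%) were higher with IFN-α at 16 h and 443 (3.45%) were lower. The median of all genes lay at -0.08, and at -0.12 and -0.17 with the deposited scaling and with median centring. As a description of how far 2 other single arrays differed, 24 genes (0.187%) lay past 2-fold between the IFN-λ1 and IFN-λ4 arrays of 16 h.

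The label was set against marker genes. All 14 markers of hepatocytes and hepatoma cells were above the dim level on both arrays, with normalised intensities of 6055 to 428881 on the IFN-α 16 h array and 7841 to 428881 on the untreated array. Albumin (ALB) read 197696 and 192806 on these arrays, and α-fetoprotein (AFP) 348405 and 369505. None of the 14 differed by 2-fold, and their median difference was 0.01. Of 12 leukocyte markers, 9 were above the dim level with IFN-α and 8 without, and their summed intensity was 23017 and 21103. The pan-leukocyte gene PTPRC was dim at 41.4 and 44.4, while MS4A1, a B cell membrane protein, read 2860 with IFN-α and 360 without and was, with NKG7 (1.40), one of the 2 called higher. ITGAM (-1.24) was lower. For the 9 leukocyte markers above the dim level in their mean these are 22.2% higher and 11.1% lower, against 5.75% and 3.45% of all genes. Of 8 fibroblast and stellate cell markers 4 and 5 were above the dim level, with sums of 5259 and 6372, where PDGFRB read 556 with IFN-α and 1529 untreated (-1.46) and was the 1 call, and of 7 endothelial markers 4 and 4, with sums of 3406 and 4484. The PDGFRB call is 25% of the 4 fibroblast and stellate cell markers above the dim level in their mean, against 3.45% of all genes. In sets this small 1 call is a large share. The cells are labelled as 1 line, and the source of the signal of these leukocyte, fibroblast and endothelial markers was not tested.

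Type I interferons bind a receptor of the chains IFNAR1 and IFNAR2, and the kinases JAK1 and TYK2 on its cytoplasmic side activate STAT proteins. A complex of STAT proteins with IRF9 then enters the nucleus and binds interferon-stimulated response elements in the promoters of antiviral genes. In hepatocytes this response limits hepatitis viruses, and it is shut down again by feedback proteins such as USP18 and the SOCS family.

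The genes furthest above untreated were antiviral effectors, metallothioneins and genes that belong to neither group. The 12 highest genes by the naming rule held 5 antiviral effectors (IFITM1, IFI6, OAS1, OAS3 and EPSTI1) and 4 metallothioneins (MT1B, MT1E, MT1A and MT1X). The others were RASL10A, which encodes a small GTPase of the RAS family, HERC3, a HECT-type ubiquitin ligase, and MAP2K4, a stress kinase. MAP2K4 read 4223 with IFN-α and 4.77 on the untreated array. That untreated value lay far below all but 1 of the other arrays, and with low values raised to the dim level the ratio was 15.9. Leaving out ADIPOQ, whose single untreated spot stood apart (-7.41), the lowest were PHLDA2, the zinc importer SLC39A10 and MICALL2. With ADIPOQ and the like included, at least 8-fold differences were counted in 94 genes above and 4 below untreated. At least 4-fold differences numbered 224 above and 22 below.

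**Figure D1:**
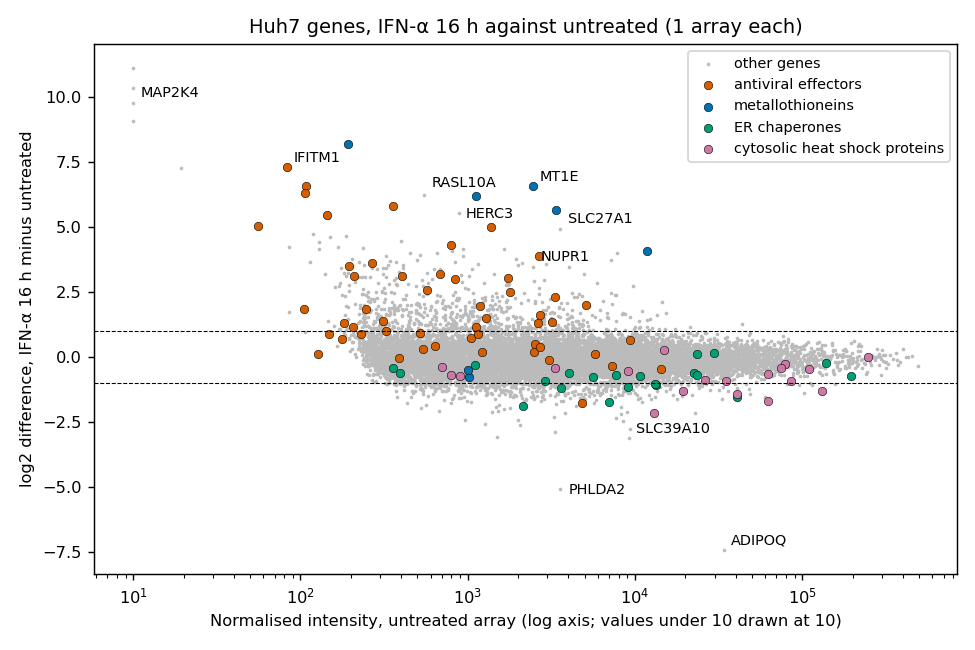
Each point is 1 of 12835 genes. The x axis is the normalised intensity on the untreated array (log axis) and the y axis the log2 difference, IFN-α 16 h minus untreated, with dashed lines at 2-fold. Coloured points mark antiviral effectors, metallothioneins, endoplasmic reticulum chaperones and cytosolic heat shock proteins. The largest positive differences lie among genes that were dim or low in untreated cells, and metallothioneins and antiviral effectors stand above most other genes.

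The share of genes called was also counted by the level in untreated cells. The untreated value is part of each difference, so low values favour higher calls and high values lower ones by construction, and the shares are a description. Of the 246 genes below the dim level on the untreated array, 41.9% were at least 2-fold higher with IFN-α, a share that the filter on the mean over arrays also sets in part. The rest were put in 4 groups of near-equal size by untreated level, and from the lowest to the highest group 9.39%, 6.81%, 3.30% and 0.667% of genes were higher. The matching shares of lower genes were 3.01%, 4.77%, 4.16% and 2.13%.

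Antiviral effectors were higher as a group. Of 61 with a probe, 52 were above the dim level, and 32 of these were at least 2-fold higher and 1 was lower, against 5.75% and 3.45% of all genes. Their median difference was 1.37, against -0.08 over all genes, and 47 of the 52 lay above 0. IFITM1, a membrane protein that hinders viral entry, read 13245 with IFN-α at 16 h and 82.7 untreated, a 160-fold ratio. IFI6, an interferon-induced mitochondrial protein, read 10499 and 109 on the same arrays, 96.7-fold higher. OAS1, which makes the 2′-5′ oligoadenylates that activate a latent ribonuclease, read 8457 with IFN-α and 107 untreated. All of them were dim in untreated cells, so their ratios rest on low values. With those values raised to the dim level the ratios were 49.9, 39.6 and 31.9.

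ISG15 was the brightest of the 8 effectors with the largest differences. This ubiquitin-like modifier, joined to many proteins in the response, read 45032 with IFN-α and 1377 untreated, 32.7-fold higher. Its conjugating enzyme UBE2L6 read 40047 with IFN-α and 2666 untreated. OAS3, a relative of OAS1, read 20388 with IFN-α and 357 untreated, and IFIT1, which binds viral RNA, 15914 and 798. EPSTI1 read 6412 with IFN-α and a dim 143 untreated. BST2 (tetherin), which holds budding virus particles at the cell surface, read 1871 with IFN-α and a dim 56.1 untreated, a ratio of 33.4 that was 7.05 with low values raised.

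Other members of the list did not take part to a like degree. MX1, a GTPase that blocks viral nucleocapsids, read 3592 with IFN-α and 406 untreated, while its relative MX2 read 10585 and 14289. EIF2AK2, the kinase PKR, had a difference of 0.22, IFI44L of 0.19 and LY6E of -0.02. The list thus ran from 7.32 for IFITM1 to -1.74 for ZC3HAV1. ZC3HAV1, a zinc finger protein that marks viral RNA for decay, read 1439 with IFN-α and 4814 untreated, and was the 1 effector at least 2-fold lower. Its other probe had a difference of -0.69 and was not called, and at 6 h of IFN-α the gene differed from the same untreated array by 1.21. The other 9 effectors were dim in their mean over the arrays, and 8 of them were at least 2-fold higher. Over all probes with 1 gene symbol and no filter that share was 5.74%. Among these 8 effectors were IFI27, at 859 with IFN-α and 42.7 untreated, and RSAD2, at 246 and 6.43. Both RSAD2 values lay below the dim level of 265 units, so its ratio rests on low values. UBE2L6, MX1, MX2, EIF2AK2, IFI44L, LY6E, ZC3HAV1, IFI27 and RSAD2 were chosen after their values were seen.

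**Figure D2:**
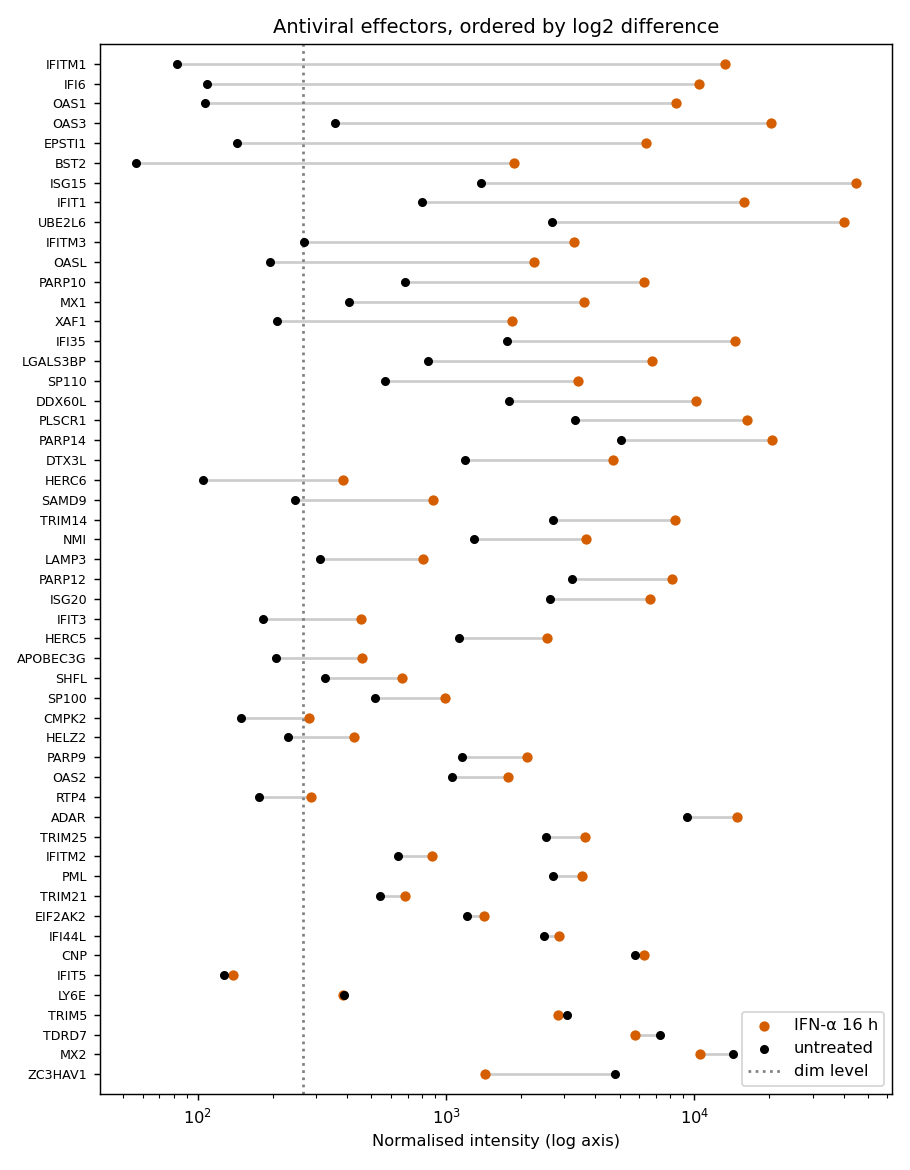
Normalised intensity (log axis) of each antiviral effector above the dim level, ordered by log2 difference. Orange points are the IFN-α 16 h array, black points the untreated array, 1 array each, and the dotted line is the dim level of 265 units. The largest gaps belong to genes left of the dotted line in untreated cells, and ZC3HAV1 at the bottom is lower with IFN-α.

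Promoters of 4 effectors are shown because they hold the letters of the interferon-stimulated response element. The core searched was GAAA, then any 2 bases (NN), then GAAA, on both strands, in the 250 bases before the start of each gene (RefSeq, build GRCh38.p14). Each sequence runs 5′ to 3′ toward the gene's start, and capitals mark matches on either strand. They lie at chr11:313790-314039 (plus strand) for IFITM1, chr1:27672193-27672442 (minus strand) for IFI6, chr1:1013247-1013496 (plus strand) for ISG15 and chr12:112938224-112938473 (plus strand) for OAS3.
IFITM1: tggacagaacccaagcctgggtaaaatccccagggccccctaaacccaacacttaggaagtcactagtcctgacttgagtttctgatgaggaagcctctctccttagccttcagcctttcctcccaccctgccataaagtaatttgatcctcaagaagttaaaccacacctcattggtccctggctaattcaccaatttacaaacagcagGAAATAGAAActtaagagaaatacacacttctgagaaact
IFI6: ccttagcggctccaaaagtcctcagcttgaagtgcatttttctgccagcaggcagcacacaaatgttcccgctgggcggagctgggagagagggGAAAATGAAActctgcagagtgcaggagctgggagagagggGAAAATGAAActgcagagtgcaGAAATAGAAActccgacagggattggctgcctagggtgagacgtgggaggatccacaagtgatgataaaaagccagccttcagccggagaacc
ISG15: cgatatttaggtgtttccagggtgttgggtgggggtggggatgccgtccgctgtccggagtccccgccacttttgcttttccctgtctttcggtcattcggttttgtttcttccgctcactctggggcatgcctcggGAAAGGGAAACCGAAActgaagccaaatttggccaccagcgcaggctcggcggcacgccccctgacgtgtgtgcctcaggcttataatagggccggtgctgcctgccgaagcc
OAS3: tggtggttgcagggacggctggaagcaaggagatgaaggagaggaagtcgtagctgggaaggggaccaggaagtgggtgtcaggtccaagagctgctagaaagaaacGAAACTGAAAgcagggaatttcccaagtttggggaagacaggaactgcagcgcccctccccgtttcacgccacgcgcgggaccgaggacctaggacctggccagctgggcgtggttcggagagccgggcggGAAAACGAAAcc

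IFITM1 held 1 match, 40 bases before the start, IFI6 held 3, and ISG15 and OAS3 held 2 each. The core was present in 3.71% of the 27305 genes with a promoter sequence and in 3.35% of the 10525 genes that were also above the dim level. Of the 28 at least 2-fold higher antiviral effectors with a promoter sequence, 21 (75%) held it, and of the 15 effectors not called higher 5 (33.3%) did. Among genes of immunoproteasome and MHC class I loading it was found in 7 of 13. A match is a description of letters, not of a bound site.

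Interferon signalling genes divided by role. IRF9, the DNA-binding subunit of the STAT complex, read 40871 with IFN-α and 7749 untreated, 5.27-fold higher, and both its probes were called. IRF1, another transcription factor, read 3756 and 1550, and STAT2, partner of IRF9, 5714 and 2994, a difference of 0.93 that missed 2-fold. The receptor chains were close on the 2 arrays, with IFNAR1 at 1991 with IFN-α and 1808 untreated and IFNAR2 at 1554 and 1962. IL10RB, a chain of the IFN-λ receptor, had a difference of 0.27, while IFNLR1, its partner, was dim at 114 and 254, as was IRF7 at 86.7 and 77.3. Over 17 genes of receptors and JAK-STAT signalling 3 (17.6%) were called higher and 0 lower, against 5.75% and 3.45% of all genes. Their median was 0.14. The third call was STAT5B, whose difference of 1.28 was 0.34 when averaged over its probes.

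Among feedback genes 2 were called. USP18, a protease that removes ISG15 and binds IFNAR2, read 4650 with IFN-α and 1302 untreated, 3.57-fold higher, with both probes called. SOCS1, an inhibitor of JAK kinases, read 361 with IFN-α and 1521 untreated, 4.21-fold lower. SOCS3 had a difference of 0.39 and PIAS1, an inhibitor of STAT binding, of 0.93. Of 16 feedback genes 1 was called higher and 1 lower (6.25% each), close to the 5.75% and 3.45% of all genes, with a median of -0.18.

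Among 11 sensors of foreign nucleic acid 3 (27.3%) were at least 2-fold higher and 0 lower, against 5.75% and 3.45% of all genes. Their median was 0.07. IFIH1 (MDA5), a sensor of long double-stranded RNA, read 1439 with IFN-α and 114 untreated, 12.6-fold higher, or 5.42-fold with low values raised. RIGI, a sensor of short RNA with a 5′ triphosphate, read 1612 and 491, but its other probe had a difference of only 0.29. The DNA sensor IFI16 was the third, with a difference of 1.22.

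Proteasome genes separated by type. The immunoproteasome is a form of the proteasome whose exchanged catalytic subunits yield peptides for MHC class I. Its subunits PSMB9 and PSMB8 read 8907 and 2300 with IFN-α, against 398 and 129 untreated, so they were 22.4-fold and 17.8-fold higher. PSMB8 was dim when untreated, and its ratio with low values raised was 8.67. TAP1, one chain of the peptide transporter into the endoplasmic reticulum, read 11182 with IFN-α and 1060 untreated, while TAP2, the other, had a difference of -0.06. Of 15 genes of immunoproteasome and MHC class I loading 6 (40%) were called higher and 0 lower, against 5.75% and 3.45% of all genes. Their median was 0.79. Of 31 constitutive proteasome subunits 1 was higher (PSMA6, 1.84) and 1 lower (PSMD3, -1.46), 3.23% each, and neither share exceeded that of all genes. Below 0 lay 25 of the 31, and 7275 of all 12835 genes, and the median of the 31 was -0.29. TAP2 was chosen after its value was seen.

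Chemokines held calls in both directions. Of 13 chemokines and cytokines 3 (23.1%) were higher and 2 (15.4%) lower, against 5.75% and 3.45% of all genes. CXCL10, which draws T cells, read 2870 with IFN-α and a dim 223 untreated, and CCL5 15348 and 3601. The other probe of CCL5 had a difference of only 0.43, against 2.09. TNFSF10 (TRAIL), a death ligand, read 3324 and 848, but its other probe had a difference of -0.04. Of 14 NF-κB genes 2 (14.3%) were higher and 1 (7.14%) lower: TNFAIP3 (1.48), a brake on the pathway, and NFKBIE (1.18), an inhibitor of its subunits, were higher and NFKBIZ (-1.07) was lower. The list of GBP and APOL families, which respond to IFN-γ in many cells, held 6 genes above the dim level, and 0 were called. Among these were WARS1 (-0.58), CD74 (0.45) and CIITA (0.41), which are in neither family. Another 11 members were dim, of which 3 were at least 2-fold higher and 1 lower. Over all probes with 1 gene symbol and no filter the shares were 5.74% and 3.29%.

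Metallothioneins are small cysteine-rich proteins that bind zinc and copper, and their genes are switched on by the zinc-sensing factor MTF1. Of 7 measured, 5 (71.4%) were called higher and 0 lower, against 5.75% and 3.45% of all genes. These 5 were at least 17-fold higher, and the other 2 were not called. MT1E read 234031 with IFN-α at 16 h and 2445 untreated, 95.7-fold higher. MT2A, the brightest in untreated cells, read 204320 and 11850, 17.2-fold higher. MT1X read 170478 and 3389, MT1A 83994 and 1124, and MT1B 57268 and a dim 193. The brain and epithelial members MT3 and MT4 read 603 and 719 with IFN-α, against 1020 and 1002 untreated. The median of the 7 was 5.65. Metallothionein genes are close paralogs, so their probes may share signal, and each was measured by 1 probe.

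On the other arrays, which share the untreated array, MT1B differed from untreated by 7.39 with IFN-α at 6 h, 0.84 with IFN-λ1 at 16 h and 2.15 with IFN-λ4 at 16 h. MT1A differed by 5.87, 0.94 and 1.50 in the same order, and MT1E by 5.95, 3.26 and 3.73. MT2A differed by 3.75, 2.23 and 2.52. IFI6 differed by 6.14, 7.10 and 7.12. The IFN-α and IFN-λ doses are in different units, so these values stand side by side and are not a comparison of the interferons.

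**Figure D3:**
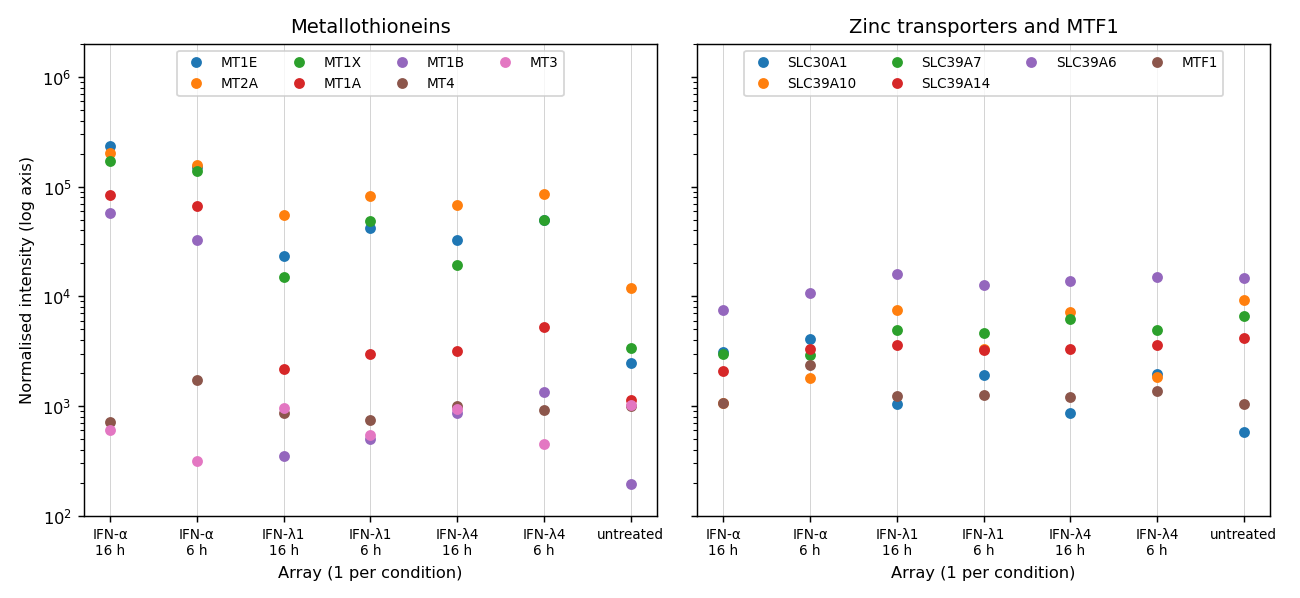
Normalised intensity (log axis) of the 7 measured metallothioneins (left) and of 5 zinc transporters and MTF1 (right) on all 7 arrays, 1 point per gene and array. MT1E, MT2A, MT1X, MT1A and MT1B are highest on the IFN-α 16 h array, and SLC39A10 is lowest there.

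Promoters of 2 metallothioneins are shown because they carry the metal response element, the site of MTF1. The cores searched were TGCGCNC and TGCACNC, on both strands and in the same 250-base window, and capitals mark matches. They lie at chr16:56608334-56608583 (plus strand) for MT2A and chr16:56682220-56682469 (plus strand) for MT1X.
MT2A: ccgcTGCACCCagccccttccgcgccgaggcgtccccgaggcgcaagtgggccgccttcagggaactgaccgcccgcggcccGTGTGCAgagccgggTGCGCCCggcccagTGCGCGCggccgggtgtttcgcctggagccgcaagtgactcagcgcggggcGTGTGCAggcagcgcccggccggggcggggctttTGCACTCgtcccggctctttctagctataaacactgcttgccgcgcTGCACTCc
MT1X: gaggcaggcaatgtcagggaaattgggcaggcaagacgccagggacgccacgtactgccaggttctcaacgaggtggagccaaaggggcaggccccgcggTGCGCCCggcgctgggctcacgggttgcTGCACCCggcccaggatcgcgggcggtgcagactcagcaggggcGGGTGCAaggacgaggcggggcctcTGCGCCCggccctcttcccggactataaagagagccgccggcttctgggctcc

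MT2A held 7 matches and MT1X 4. All 4 metallothioneins with a promoter sequence held a core, as did 28.5% of all genes with a promoter sequence and 38.3% of those above the dim level, so the core alone is common. The core of the interferon-stimulated response element was found in 0 of the 4, and that of the γ-activated sequence (TTCNNNGAA) in 2 of the 4, against 7.68% of genes above the dim level.

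Zinc transporters included SLC30A1 at the high end and SLC39A10 at the low end. SLC30A1, which exports zinc and is a target of MTF1, read 3128 with IFN-α and 573 untreated, 5.46-fold higher. SLC39A10, a zinc importer, read 1053 with IFN-α and 9177 untreated, 8.72-fold lower. The importer genes SLC39A7 and SLC39A14 read 2962 and 2098 with IFN-α, against 6657 and 4198 untreated. MTF1 itself read 1070 and 1038. Of 18 genes of zinc transport and MTF1, 1 (5.56%) was called higher, near the 5.75% of all genes, and 3 (16.7%) lower, against 3.45%, with a median of -0.11.

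Genes of oxidative stress were called in both directions. HMOX1, which breaks down heme, had a difference of 0.70, below 2-fold. Of 20 targets of the factor NRF2, AKR1B10, an aldo-keto reductase, was higher (1.78), and SLC7A11, the cystine importer, and GCLM, a subunit of the first enzyme of glutathione synthesis, were lower (-2.16 and -1.51). These are 5% higher and 10% lower, against 5.75% and 3.45% of all genes, and the median was -0.04.

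The 2 chaperone lists held lower calls and no higher ones. DNAJB5, an HSP40 gene in neither list, read 4760 with IFN-α and 323 untreated (3.88), and was chosen after its value was seen. Of 19 cytosolic heat shock genes 5 (26.3%) were at least 2-fold lower and 0 higher, against 3.45% and 5.75% of all genes. Of the 19, 17 lay below 0, as did 7275 of all 12835 genes, and their median was -0.69. HSPA1A, the inducible HSP70, read 19664 with IFN-α and 62288 untreated, its twin gene HSPA1B 2937 and 12983, and HSPH1, an HSP70 partner, 15225 and 40535. HSPA1A and HSPA1B are near-identical, so their probes may share signal, and the HSPA1B reading stood apart from those of all other arrays, which lay between 12983 and 22637. The other probe of HSPH1 was called too (-1.38). HSPA8, the constitutive HSP70, had differences of -1.29 and -1.59 on its probes, and was chosen after its value was seen.

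Of 21 endoplasmic reticulum chaperones and folding genes 7 (33.3%) were at least 2-fold lower and 0 higher, against 3.45% and 5.75% of all genes. Of the 21, 19 lay below 0, with a median of -0.71. HSPA5 (BiP), the main chaperone of this compartment, read 583 with IFN-α and 2128 untreated, 3.65-fold lower. MANF, a secreted stress-induced protein, read 2088 and 6963, and SDF2L1, a BiP partner, 14010 and 40704. The medians of the cytosolic and endoplasmic reticulum lists lay between -0.64 and -0.84 under the 3 scalings. On the other arrays HSPA5 differed from the same untreated array by -0.46 with IFN-α at 6 h, 0.30 with IFN-λ1 at 16 h and 0.26 with IFN-λ4 at 16 h.

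Genes of the integrated stress response, which ATF4 switches on when translation is slowed, were split. NUPR1, a stress-induced chromatin protein, read 27580 with IFN-α and 2464 untreated, 11.2-fold higher, and PPP1R15A (GADD34), which restores translation, 11604 and 3004. Of the 27 genes 2 (7.41%) were higher, near the 5.75% of all genes, and 7 (25.9%) were lower, against 3.45%. Among the lower genes were SLC7A11 and CHAC1 (-1.75), which degrades glutathione, and the median of the list was -0.24. The amino acid genes ASNS (-1.23) and SLC7A5 (-1.41) and the pseudokinase gene TRIB3 (-1.44, and -1.77 on its other probe) were also lower. CHAC1, ASNS, SLC7A5 and TRIB3 were chosen after their values were seen.

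**Figure D4:**
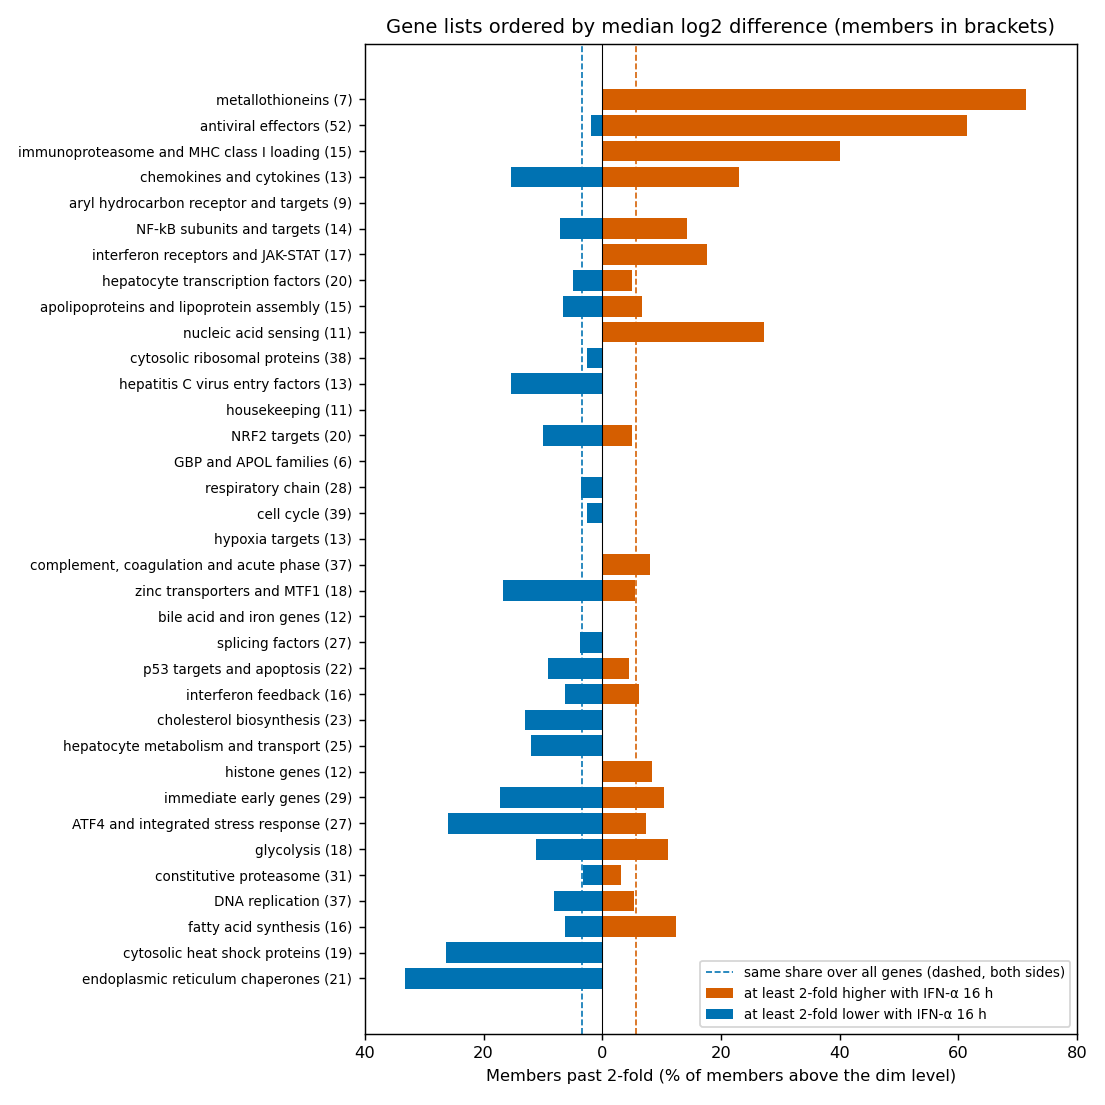
Share of each list's members above the dim level that were at least 2-fold higher (orange, right) or lower (blue, left) with IFN-α at 16 h, 1 array against 1. Lists run from the highest median log2 difference at the top to the lowest at the bottom, the number of members is in brackets, and dashed lines give the shares over all 12835 genes, 5.75% and 3.45%. Metallothioneins and antiviral effectors have the largest shares of higher genes, and the 2 chaperone lists at the bottom have the largest shares of lower genes.

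Of 29 immediate early genes 3 (10.3%) were higher and 5 (17.2%) lower, against 5.75% and 3.45% of all genes, with a median of -0.23. SRF, a factor that drives these genes, had a difference of 1.46, and KLF10 of 1.43, while DUSP5, a phosphatase of the kinase ERK, read 10844 with IFN-α and 33318 untreated. DUSP6, its relative, had a difference of -1.47 and MYC of -1.30. KLF10 and MYC were chosen after their values were seen.

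The low end of all genes held several secreted or membrane signalling genes that belong to no list above. DKK1, a secreted inhibitor of WNT signalling, read 1547 with IFN-α and 8453 untreated, and LFNG, a glycosyltransferase that modifies NOTCH, 455 and 3335. TNFRSF10D, a decoy receptor for TRAIL, read 1385 with IFN-α and 9327 untreated. Of the other genes at the low end, TUBA4A, an α-tubulin, read 1502 with IFN-α and 7674 untreated, and KRT23, a keratin, 338 and 2044. GRK2, a kinase that desensitises receptors, read 660 and 3274. ATAD3B, a mitochondrial ATPase, had a difference of -2.42. TRAPPC3L and ZSWIM1 were dim with IFN-α at 214 and 181, so their differences of -2.58 and -2.41 rest on low values. PHLDA2, an imprinted gene with a pleckstrin homology domain, read a dim 108 with IFN-α and 3563 untreated, while it differed from untreated by only 0.13 with IFN-α at 6 h.

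Metabolic lists held small numbers of calls, in shares above those of all genes (5.75% higher and 3.45% lower) in some of them. Among 18 glycolysis genes ENO2, the neuronal enolase, read 29029 with IFN-α and 6418 untreated, and LDHB, a lactate dehydrogenase subunit, 4046 and 1064. PFKL, the liver phosphofructokinase, was lower (-1.09, and -1.63 on its other probe), and the counts were 2 higher and 2 lower (11.1% each). Of 23 cholesterol synthesis genes 0 were higher and 3 lower (SREBF2 at -1.12, MVK at -1.04 and STARD4 at a difference just past 2-fold), and of 16 fatty acid synthesis genes 2 (12.5%) were higher and 1 (6.25%) lower (FADS2 at -1.31). Of 13 hypoxia targets, 9 genes of the aryl hydrocarbon receptor and 12 bile acid and iron genes 0 were called.

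Genes of liver function were read against the same shares of all genes, 5.75% higher and 3.45% lower. Of 37 genes of complement, coagulation and the acute phase 3 (8.11%) were higher and 0 lower, with a median of -0.09. F13B, a clotting factor subunit, read 1416 with IFN-α and 378 untreated. Of 20 hepatocyte transcription factors ONECUT1 (1.62) was higher and PPARA (-1.45), a regulator of fatty acid oxidation, lower, 5% in each direction. The other probes of PPARA had differences of -0.69 and 0.15 and were not called. Of 25 genes of hepatocyte metabolism and transport 0 were higher and 3 (12%) lower: the uptake transporter SLCO1B3 (-1.74), the asialoglycoprotein receptor subunit ASGR1 (-1.27) and ARG1 of the urea cycle (-1.02). Of 13 host factors for entry of hepatitis C virus 0 were higher and 2 (15.4%) lower, SDC1 (-1.12), a heparan sulfate proteoglycan, and SLC39A14. Of 15 apolipoprotein and lipoprotein genes ANGPTL4 (1.15) was higher and MTTP (-1.08), which loads lipid onto apolipoprotein B, lower.

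Of 39 cell cycle genes 0 were higher and 1 (2.56%) lower (CCND3 at -1.12), against 5.75% and 3.45% of all genes. Of 37 DNA replication genes 2 (5.41%) were higher, near the 5.75% of all genes, and 3 (8.11%) lower. RPA3, a subunit of the single-strand binding complex, read 1980 with IFN-α and a dim 235 untreated, and POLD1, a polymerase subunit, had a difference of 1.72. Of 22 genes of p53 targets and apoptosis 1 (4.55%) was higher, near the share of all genes, and 2 (9.09%) were lower. BCL2L11 (1.09) was the higher one, and BAX (-1.51) and TNFRSF10A (-1.17) the lower ones. The other 3 probes of BCL2L11 had differences of -0.36, -0.31 and 0.18 and that of BAX -0.80, none past 2-fold. Ribosomal protein, respiratory chain, splicing, histone and housekeeping lists held at most 1 call in each direction.

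Genes of the interferon lists made up a small part of all genes and a larger part of those called higher. Of all 12835 genes 130 (1.01%) were in these 7 lists. Of the 738 called higher, 48 (6.50%) were in them (effectors, signalling, feedback, sensing, antigen presentation, GBP and APOL, chemokines), 5 were metallothioneins and 685 (92.8%) were neither. Of the 94 at least 8-fold higher, 68 (72.3%) were neither, and of the 40 highest 24 were. Being neither says only that a gene is absent from these chosen lists, and not that interferon does not raise it. The 68 include LRRC20, MAP3K2, MPEG1 and TMEM165, whose untreated spots stood apart from all other arrays. RASL10A was the highest of these by the naming rule after MAP2K4, with 41994 with IFN-α and 548 untreated, 76.6-fold higher. HERC3 read 41731 and 884, 47.2-fold higher. Chosen after their values were seen, the fatty acid transporter SLC27A1 read 110295 with IFN-α and 3588 untreated, ARHGAP31, a GTPase-activating protein, 3188 and a dim 120, and the ubiquitin-like UBD 97853 and 7222. RASL10A, HERC3, SLC27A1, ARHGAP31 and UBD were each measured by 1 probe, so their ratios have no second reading.

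On the other arrays RASL10A differed from the same untreated array by 3.61 with IFN-α at 6 h, -0.07 with IFN-λ1 at 16 h and 0.04 with IFN-λ4 at 16 h. HERC3 differed by 3.36, 0.32 and 0.34, SLC27A1 by 2.18, -0.04 and -0.22, and ARHGAP31 by 3.51, -0.21 and 0.11. In each of these genes the IFN-α 16 h array was the highest of the arrays named and the IFN-α 6 h array the next.

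Promoters of RASL10A and ARHGAP31 are shown beside those of the effectors because neither holds the core of the interferon-stimulated response element in this window, so no letters are in capitals. They lie at chr22:29315698-29315947 (minus strand) and chr3:119294133-119294382 (plus strand), from the same RefSeq table.
RASL10A: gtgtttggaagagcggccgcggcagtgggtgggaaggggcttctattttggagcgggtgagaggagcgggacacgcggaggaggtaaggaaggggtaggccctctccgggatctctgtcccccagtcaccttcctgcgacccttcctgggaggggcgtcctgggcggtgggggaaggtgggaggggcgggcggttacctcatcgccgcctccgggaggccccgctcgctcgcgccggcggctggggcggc
ARHGAP31: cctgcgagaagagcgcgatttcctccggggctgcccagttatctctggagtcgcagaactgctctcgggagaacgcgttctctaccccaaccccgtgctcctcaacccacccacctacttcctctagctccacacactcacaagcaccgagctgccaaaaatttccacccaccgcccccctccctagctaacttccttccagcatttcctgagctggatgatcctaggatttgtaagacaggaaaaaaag

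Of the 42 genes of the interferon lists that were called higher and had a promoter sequence, 27 (64.3%) held the core. Of the 522 called genes outside these lists and the metallothioneins 17 (3.26%) did, and of the 48 that were at least 8-fold higher 0 did. The share over all genes above the dim level was 3.35%. The core of the γ-activated sequence, TTCNNNGAA, was present in 12 of the 42 (28.6%) and in 46 of the 522 (8.81%), against 7.68% of genes above the dim level. No match says only that these letters are not in this window.

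A second probe gave a further reading for some genes. Of 3494 other probes above the dim level, 3.58% were at least 2-fold higher and 4.38% lower, with a median of -0.15. For 16 genes called higher in the interferon lists, 9 of 18 other probes were at least 2-fold higher as well and 0 lower, with a median of 1.12. For 99 genes called higher outside them, 17 of 113 other probes (15.0%) were at least 2-fold higher, 3 were lower and 93 lay between, with a median of 0.17. For 94 genes called lower outside these lists 36 of 104 other probes (34.6%) were lower too, 3 were higher, and the median was -0.83. The second probe of KCTD15 (4.02) had a difference of -0.15, that of TCAF2 (3.93) -0.67 and that of PDZD7 (3.91) -0.64. These 3 were chosen after their values were seen. The probe that stands for a gene is the brightest in its mean over the 7 arrays, the IFN-α 16 h array included. That choice favours a probe that is high there, so the shares for higher and lower calls are not on equal terms. What sets a gene's probes apart was not tested.

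**Figure D5:**
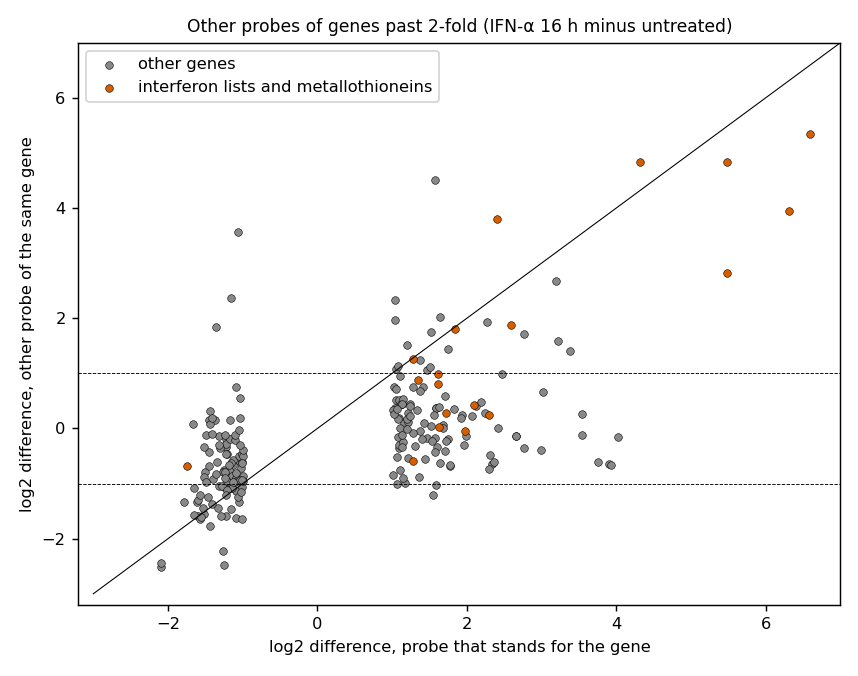
Each point is another probe of a gene that was called at 2-fold. The x axis is the log2 difference (IFN-α 16 h minus untreated) of the probe that stands for the gene and the y axis that of the other probe, with dashed lines at 2-fold and the diagonal marking equal values. Orange points are genes of the interferon lists and metallothioneins and grey points are other genes. Of the 113 grey points on the right 93 lie between the dashed lines, while of the 18 orange points there 9 lie above them.

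Of 3095 genes with at least 2 probes above the dim level, 23 were higher and 30 lower on every one. Of the 23, 8 were in the interferon lists: IFI6 (5.34 and 6.59), IFIT1 (4.32 and 4.83), OAS1 (3.95 and 6.31), EPSTI1 (3 probes, 2.83 to 5.48), IRF9 (2.40 and 3.79), SP110, USP18 and IRF1. Among the other 15 were ENTPD7, an enzyme that cleaves nucleotides (2.67 and 3.19), and IGFBP3, a binding protein of insulin-like growth factors (1.44 and 1.75). The interferon lists hold 130 (1.01%) of all 12835 genes, a share that 8 of 23 exceeds. All 30 lower genes lay outside these lists, which is near that share. They included NEU4, a sialidase (3 probes, -2.10 to -2.51), AGPAT2, an enzyme of phospholipid and triglyceride synthesis (-1.58 and -1.60), TNFRSF1A, the main TNF receptor (-1.25 and -2.47), and TRIB3, HSPH1, HSPA8, ASGR1 and PFKL, given above. These examples were chosen after their values were seen.

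The share called higher was also counted by gene class, with the classes formed after the values were seen. Of 12484 protein-coding genes 5.58% were higher and 3.47% lower. Of 189 long non-coding RNAs 26 (13.8%) were higher and 8 lower, of 59 antisense RNAs 9 (15.3%) and 0, and of 103 transcribed pseudogenes 12 (11.7%) and 0. Of 125 olfactory receptor genes 21 (16.8%) were higher and 5 lower. Of 25 keratin-associated protein genes 5 (20%) were higher and 0 lower, and of 341 zinc finger genes 19 (5.57%) were higher and 3 lower. Median intensities were 588 with IFN-α and 507 untreated for keratin-associated protein genes and 1683 and 1369 for zinc finger genes. Olfactory receptor genes had medians of 1063 units with IFN-α and 1056 untreated, and protein-coding genes of 2911 and 2936. The part of low signal in these shares was not tested.

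On the IFN-α 16 h array 6 genes stood apart from all 6 other arrays by at least 4-fold while those lay close together. ARMCX5, CRADD and FHIP1A were higher there (differences of 2.67, 2.96 and 3.08), and HSPA1B, MICALL2 and PHLDA2 lower. Of these 6 genes 5 had 1 probe, and the second probe of FHIP1A was dim, so no second reading was at hand. MICALL2, an actin-associated protein, read a dim 176 with IFN-α and 1492 untreated. On the untreated array 5 genes stood apart in the same way. ADIPOQ read 199.9 with IFN-α and 34073 untreated, while LRRC20, MAP3K2, MPEG1 and TMEM165 read 1325, 2993, 2236 and 1543 with IFN-α, against 1, 19.3, 1 and 2.82 untreated, where 1 is the floor. Their differences rest on 1 untreated spot each, and they are left out of the 12 highest and lowest genes. Without them 734 genes were higher and 442 lower.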

How the data were processed

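RNA of Huh7 cells was measured on Cy5 1-colour arrays, 1 per condition. The deposited values are 1 intensity per probe for 31741 probes, in linear units. How the authors scaled them is not given in the sources used here. Per the labels' protocols, RNA was amplified with amino allyl labelling before hybridisation. The dose unit follows the series' design text. The authors' values were 0 or below for 61 probes on the IFN-α 16 h array and 58 on the untreated array.

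From the deposited intensity, values were set to at least 1, turned to log2 and quantile normalised over 7 arrays (Python 3.11.15, numpy 2.4.6, pandas 2.3.3, figures with matplotlib 3.10.9). Of the probes 24740 had 1 gene symbol, 977 several and 6024 none, by the platform annotation. Against RefSeq, 22722 symbols were current, 1948 were updated and 70 kept. The brightest probe stood for a gene, and genes above the 30th percentile of means were kept. Calls used 2-fold, since no test is possible between single arrays. The calling steps were tested on simulated data.

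The pair, the gene lists and the genes named were chosen with earlier results of these data known. Named genes were the 12 highest and 12 lowest (leaving out genes whose untreated value stood apart), 8 antiviral effectors, all metallothioneins, the 3 largest differences of each other list, genes standing apart, and a fixed set of signalling and zinc genes. Other genes are marked as chosen after their values were seen. Promoters were RefSeq's, on GRCh38.p14. Alternatives were median centring, the deposited scaling, 2 other filters, low values raised, 64 added before log2, the mean over probes, and thresholds of 1.5-fold and 3-fold. The probe with the highest untreated value and leaving out genes standing apart on the untreated array were added after seeing the data.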

Additional observations from a re-analysis of the deposited data

Results flagged for a closer look

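Some genes of the IFN-α 16 h array lay past 2-fold in the opposite direction on the IFN-α 6 h array, both against the same untreated array. The cystine importer SLC7A11 had a log2 difference of -2.16 at 16 h and 1.24 at 6 h, and GCLM, of glutathione synthesis, of -1.51 at 16 h and 1.07 at 6 h. The inducible chaperone gene HSPA1A had -1.66 at 16 h and 1.47 at 6 h, and the D-type cyclin gene CCND3 -1.12 at 16 h and 1.10 at 6 h. ZC3HAV1, an antiviral effector chosen after its values were seen, had -1.74 at 16 h and 1.21 at 6 h. The difference between the times was not tested, since each rests on 1 array.

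Probes outside the comparison of named genes also carried signal. Of 2714 probes above the dim level with no gene symbol, 237 (8.73%) were at least 2-fold higher with IFN-α at 16 h than untreated, and of 655 probes with several symbols 40 (6.11%) were. Among 16329 probes above that level with 1 symbol the count was 863 (5.29%). The highest difference was 5.51 among probes with no symbol and 9.03 among those with several.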

How the results depend on the processing

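Counts moved most with the filter on dim genes and the threshold. Genes at least 2-fold higher numbered 738, and 1114 with no filter, 409 without genes at or below the 50th percentile, 1558 at 1.5-fold and 360 at 3-fold. Genes at least 2-fold lower numbered 443, and 291 without genes at or below the 50th percentile, 1803 at 1.5-fold and 56 at 3-fold. Probes at least 2-fold higher numbered 1420, and 3074 at 1.5-fold and 636 at 3-fold. Probes at least 2-fold lower numbered 813, and 3434 at 1.5-fold, 139 at 3-fold and 515 with 64 added before log2. Fewer or more probes or genes pass by construction of these settings. Of the genes called, 62.5% were higher, against 56.1% with median centring, 46.4% at 1.5-fold and 86.5% at 3-fold. The median of antiviral effectors and that of metallothioneins kept their direction and their place past 2-fold under every setting run. Of 105 named genes past 2-fold 103 kept their direction and 91 stayed past 2-fold in all settings run. The exceptions in direction were TNFSF10, at -0.043 with the probe of highest untreated value, and IFNLR1, which has no difference once low values are raised. No paired analysis was possible because each condition is 1 array with no replicate number. Ratios of genes that were dim in untreated cells are limited by signal near background.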
